A study of Homo sapiens with 8 samples.

Results

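The transcription factors examined here were SOX2, SOX4, SOX9, KLF4, KLF5, ELF3, EHF, GRHL2, TP63 and OVOL1, 10 genes taken by symbol and matched to the Ensembl identifiers of the deposited table through GENCODE. All 10 were found among the 43869 genes of the table, and the table pairs them with 157 of its 126470 H3K27ac peaks. H3K27ac is the histone mark of active promoters and enhancers, and a peak is paired with a gene when at most 20 kb separates them. None of the 157 peaks is paired with more than 1 of the 10 genes, though 82 alone are paired with a single gene of the table.

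Transcription factors of these families set up and keep epithelial identity. Grainyhead-like, ETS and KLF factors bind enhancers of genes for cell junctions and secretion, p63 directs the basal programme of stratified and airway epithelia, SOX factors act in progenitors, and OVOL factors repress mesenchymal genes. SNAI and ZEB repressors act against this programme in epithelial to mesenchymal transition (EMT).

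The cells were NCI-H3122, a lung adenocarcinoma line driven by the EML4-ALK fusion, as naive cells and as derivatives that had evolved resistance to an ALK inhibitor. The erCriz0 line was selected in crizotinib at 0.5 μM, erAlec0 in alectinib at 2 μM and erLor0 in lorlatinib at 2 μM. All lines grew in RPMI with fetal bovine serum and derive from the same parental line, and the chromatin samples are labelled as DMSO treated. RNA was taken after a period without inhibitor, per the study's methods. The lines erCriz1 and erLor1, cells given lorlatinib for a short period and pooled input DNA were not analysed here.

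Each line gave 1 RNA-seq library and 1 H3K27ac library, so no difference has a replicate check, and none is given an error or a p-value. Levels are rlog values, a log2 scale on which features with few reads are drawn toward their mean, and the depth of the libraries is unknown. A change is the level in a resistant line after the naive level was subtracted. A gene or peak is said to rise or fall at a change of at least 1, which is 2-fold on this scale. The 3 changes share the naive library and are therefore set side by side only.

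The cells carried the markers of an epithelial line. All 6 epithelial markers were expressed in all 4 lines, from 11.4 for CDH1 in naive cells to 15.2 for KRT18 in erAlec0, and none changed by 1 in any line. NKX2-1, the lung lineage factor, had levels of 8.68, 8.67, 9.13 and 9.18 in naive, erCriz0, erAlec0 and erLor0 cells, whereas NAPSA and SFTPB stayed under the minimum for an expressed gene, an rlog of log2(25) in at least 1 library. Of the markers of other cells, PTPRC was listed at 0, and the fibroblast genes PDGFRB, LUM and DCN did not exceed 2.25. COL1A1 was expressed in naive cells too, at 9.49, and CDH5 went from 4.10 in naive cells to 5.78 in erAlec0 and 5.64 in erLor0, with PECAM1 and VWF near 0. The part of COL1A1- or CDH5-expressing cells in the values below was not tested.

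No factor rose or fell in any of the 3 lines, against a background of 12701 expressed genes of which 2.65% rose and 1.65% fell in erCriz0, 2.46% rose and 2.07% fell in erAlec0, and 1.10% rose and 0.740% fell in erLor0. With shares of this size, 0 of 10 is near the background and is no result about these genes. In bulk RNA, fewer cells that express a gene and less RNA per cell cannot be told apart. The largest changes were 0.77 in erCriz0 for EHF, 0.77 in erAlec0 for TP63 and -0.69 in erLor0 for SOX9. Medians over the 10 were 0.06 (erCriz0), 0.02 (erAlec0) and -0.18 (erLor0), and those over all expressed genes -0.02, 0.00 and 0.00.

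**Figure D1:**
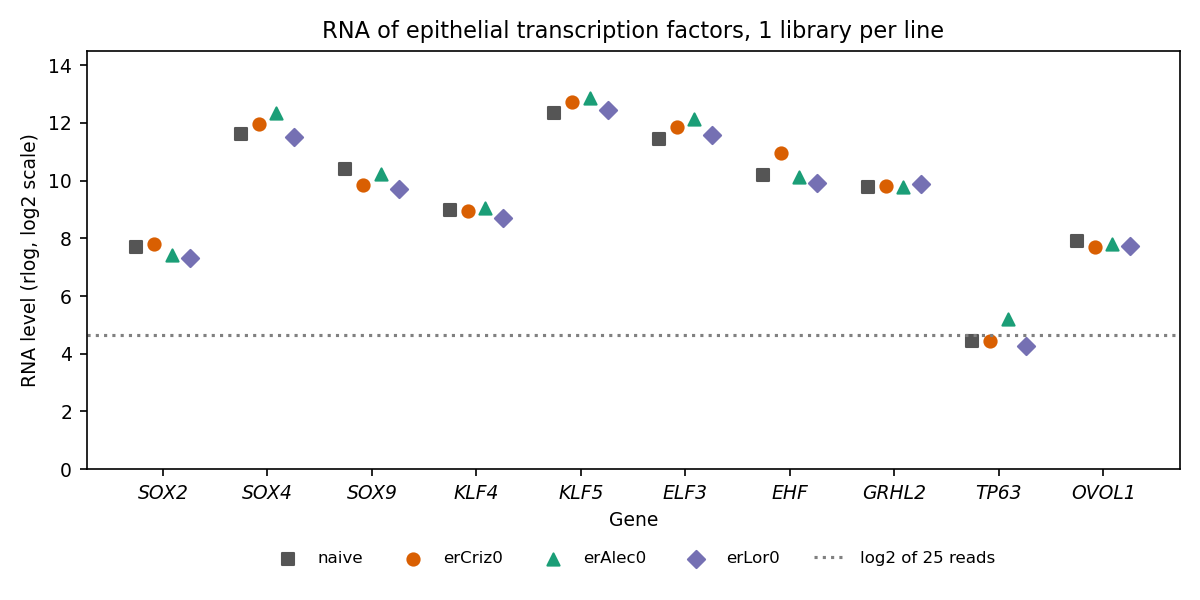
RNA level (rlog, log2 scale) of each of the 10 factors in naive, erCriz0, erAlec0 and erLor0 cells, 1 point per library. Points stay within 1 unit of the naive level for every factor, and TP63 lies far below the others.

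Levels were ordered between genes, as an approximation, after exon length was taken off. The length is that of all annotated exons of a gene joined, and which transcripts were expressed is unknown. On the rlog minus log2 of exon length in kb, the naive levels were 10.47 for KLF5, 9.32 for SOX4, 8.58 for ELF3, 8.43 for SOX9, 7.46 for EHF, 7.20 for GRHL2, 7.12 for KLF4, 6.38 for SOX2 and 6.00 for OVOL1. TP63 was last at 1.54. With 1 library per line, whether neighbours such as EHF, GRHL2 and KLF4 differ cannot be told.

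H3K27ac passed the limit in at least 1 line at 48 of the 157 peaks, mostly downward. Counts here include all 157, of which 114 reached the study's minimum of 15 reads on the log2 scale (3.91) in at least 1 library. In all, 0 rose and 16 fell (10.2%) in erCriz0, 6 rose (3.82%) and 17 fell (10.8%) in erAlec0, and 2 rose (1.27%) and 21 fell (13.4%) in erLor0. Over all 126470 peaks, 7.00% rose and 5.94% fell in erCriz0, 14.1% rose and 9.41% fell in erAlec0, and 7.45% rose and 8.82% fell in erLor0. Rises were thus below the background share in all 3 lines. Falls were above it in erCriz0, where 10 of the 16 were at GRHL2, and near it in erAlec0. The share in erCriz0 without GRHL2 was not computed. In erLor0 they were above it with TP63 and below it without TP63 (5.66%). None of these differences was tested.

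The member peaks had medians of -0.32 (erCriz0), -0.32 (erAlec0) and -0.35 (erLor0), where the median of all peaks was 0.00 in each line. In erCriz0 108 peaks were lower than in naive cells and 49 higher, in erAlec0 100 and 57, and in erLor0 101 and 56. TP63 alone holds 51 of the peaks, and among the other 106 the falls numbered 14, 9 and 6 and the medians were -0.38, -0.25 and -0.13. TP63 gave 15 of the 21 falls in erLor0. Without it 13.2% of peaks fell in erCriz0 and 8.49% in erAlec0.

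**Figure D2:**
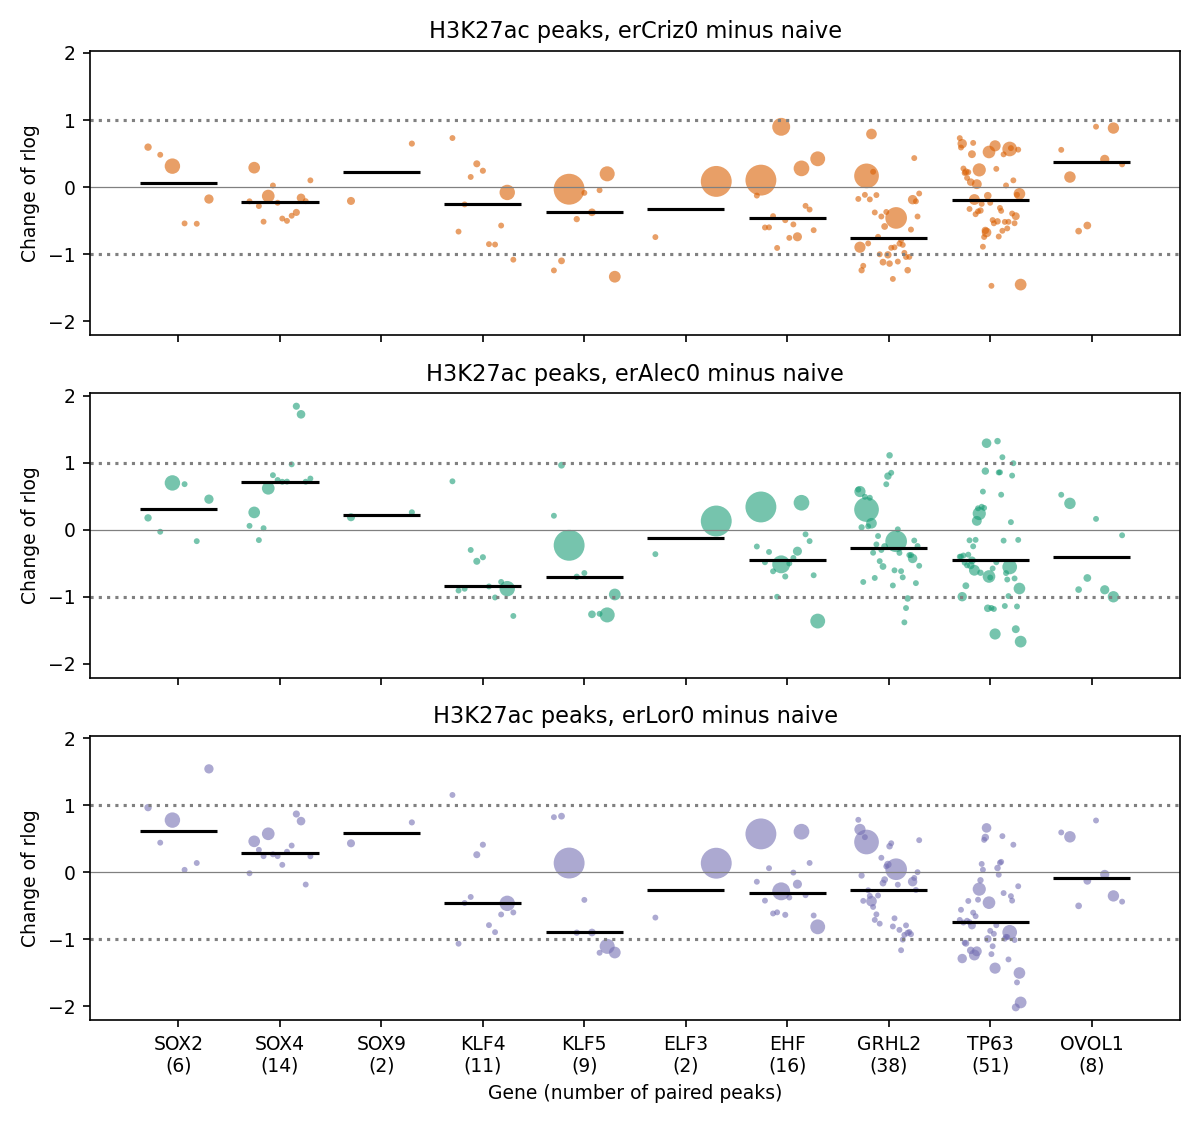
Change in H3K27ac (rlog, resistant line minus naive) of every peak paired with each factor, in erCriz0, erAlec0 and erLor0. Point area grows with peak length up to a limit, black bars are medians and dotted lines mark changes of 1 and -1; most bars lie below 0, and TP63 and GRHL2 hold most points below -1.

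Lower values were counted by peak length. Of the 98 member peaks under 1 kb, 76.5% (erCriz0), 67.3% (erAlec0) and 68.4% (erLor0) were lower than in naive cells, and among all peaks of this length 55.5%, 51.2% and 55.1% were. Of the 47 of 1 to 5 kb, 63.8%, 57.4% and 61.7% were lower in these lines, where 35.1%, 41.6% and 37.4% of all peaks were. Of the 12 peaks of 5 kb and over, 3 were lower in erCriz0, 7 in erAlec0 and 5 in erLor0. Broad peaks of 10 kb and over, which mark genes with large active domains, made up 1.28% of all peaks (1618), and 14.9% of expressed genes (1892) were paired with at least 1 of them. Among the 10 factors, 4 were so paired, namely KLF5, ELF3, EHF and GRHL2.

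Start sites were examined next. The peak that overlapped the 2000 bases centred on a transcript start and had the highest mean stood for each factor, and none of these changed by 1 in any line. The largest change was -0.9989, for OVOL1 in erAlec0, and the largest in erCriz0 was 0.88, also for OVOL1. RNA and the start-site peak differed from naive cells in the same direction for 5 of 10 factors in erCriz0, 4 of 10 in erAlec0 and 5 of 10 in erLor0. These counts include RNA differences near 0 of KLF4, TP63 and GRHL2, which turn sign under other scalings. In erLor0 8 start-site peaks and 3 RNAs were higher than in naive cells. Of all peaks in that line, 37.4% of those of 1 to 5 kb and 41.4% of those of 5 kb and over were lower. Counts of agreement over all genes were not computed, so whether these are particular to the 10 factors cannot be told.

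**Figure D3:**
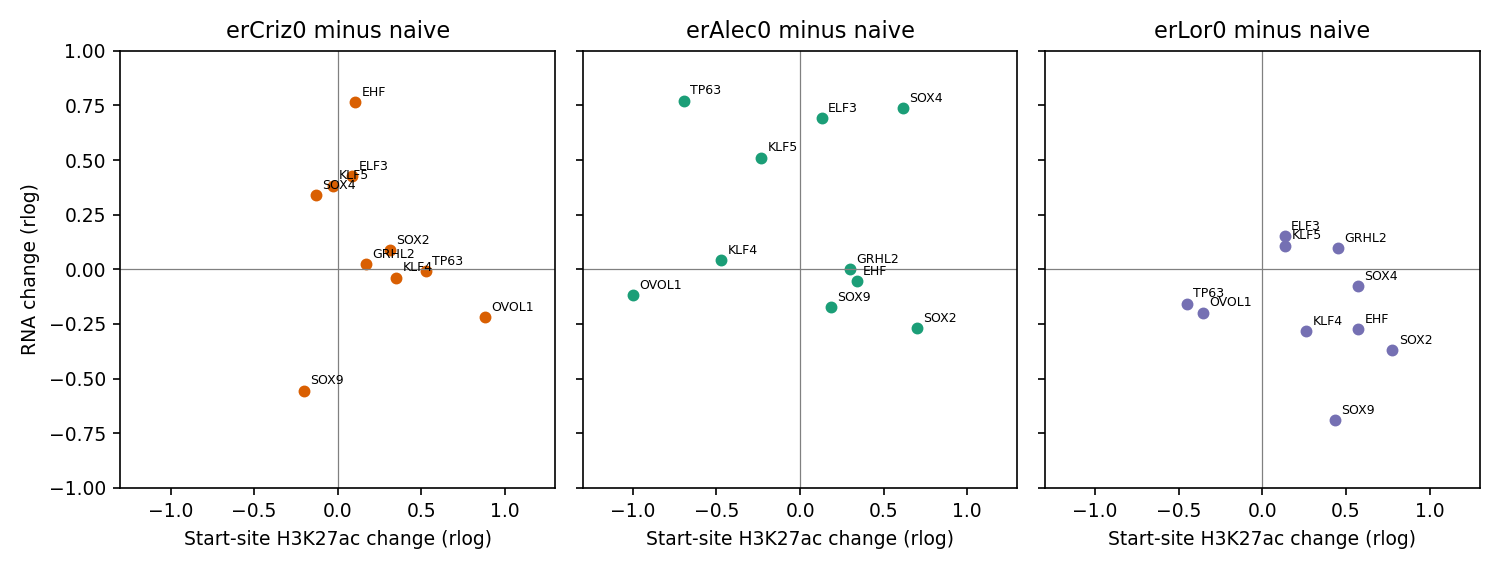
Change in RNA (rlog, resistant line minus naive) against the change in the start-site H3K27ac peak of the 10 factors, 1 panel per resistant line. Over the 3 panels points lie in all quadrants, and none passes a change of 1 on either axis.

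SOX2, the pluripotency and foregut factor (ENSG00000181449.4, chr3:181711925-181714436, plus strand, hg38), had RNA levels of 7.70, 7.79, 7.44 and 7.33 in naive, erCriz0, erAlec0 and erLor0 cells. Its gene lies within the long transcript SOX2-OT, and reads of the overlap cannot be assigned with certainty because the strand setting of the counting is not given. H3K27ac over the gene, on a peak of 6.59 kb that spans the single exon, was 10.39, 10.71, 11.09 and 11.17. The mark was higher in all 3 resistant lines whereas the RNA was lower in erAlec0 and erLor0. Of its 6 peaks 1 rose, at chr3:181725948-181728333 downstream, with values of 5.75, 5.57, 6.20 and 7.29 and a rise of 1.54 in erLor0.

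SOX4, a factor of progenitors and of transforming growth factor β responses (ENSG00000124766.7, chr6:21593751-21598619, plus strand), was among the most abundant of the 10. Its RNA measured 11.60, 11.95, 12.34 and 11.53, highest in erAlec0 and lowest in erLor0. The 0.74 of erAlec0 was reached or passed, in either direction, by 9.64% of expressed genes. Its start-site peak measured 9.76, 9.63, 10.38 and 10.34, lower in naive and erCriz0 cells than in the other lines. The 14 peaks of SOX4 are all paired with the pseudogene BOLA2P3 as well.

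The peaks downstream of SOX4 moved together in erAlec0. All 9 were higher there, with a median of 0.76, and 2 of them rose. The smallest of these changes, 0.71, was reached or passed by 21.7% of all peaks in erAlec0. In erLor0 8 of the 9 were also higher than in naive cells, with a median of 0.27. Of all 14 peaks of SOX4, 10 reached the study's minimum of 15 reads. The peak at chr6:21611890-21613288 measured 5.14, 4.77, 6.98 and 6.01, a change of 1.84 in erAlec0 and 0.87 in erLor0. Its neighbour at chr6:21613382-21615430 measured 6.17, 6.01, 7.89 and 6.94, a change of 1.72 in erAlec0. These 2 are the largest rises among all member peaks. In erAlec0 607 further peaks within 5 Mb had a median of 0.27.

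The central 300 bases of the first of these downstream peaks, at chr6:21612439-21612738 on the plus strand of hg38, are given because this region rose the most. Capitals mark CACACCC, the reverse complement of the KLF motif GGGTGTG.
SOX4 downstream peak: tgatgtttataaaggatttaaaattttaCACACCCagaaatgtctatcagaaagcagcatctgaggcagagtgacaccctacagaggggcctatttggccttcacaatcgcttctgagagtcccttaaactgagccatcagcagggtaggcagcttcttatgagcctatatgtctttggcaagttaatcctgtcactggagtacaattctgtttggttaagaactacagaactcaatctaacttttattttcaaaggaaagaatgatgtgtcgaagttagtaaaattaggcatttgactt

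SOX9, a factor of distal lung progenitors (ENSG00000125398.8, chr17:72121020-72126416, plus strand), had RNA levels of 10.40, 9.85, 10.23 and 9.71. It was lowest in erLor0, and its change there of -0.69 was reached or passed by 5.48% of expressed genes, the smallest share among the factors. Of 2 paired peaks, the 1 at the first exon measured 6.44, 7.09, 6.70 and 7.18, and the stronger 1 just upstream 7.79, 7.58, 7.97 and 8.22. Both were higher in erLor0 than in naive cells, opposite to the RNA. Both are also within 20 kb of the antisense gene SOX9-AS1.

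KLF4, a factor of differentiating epithelia (ENSG00000136826.15, chr9:107484852-107490482, minus strand), had RNA levels of 8.99, 8.95, 9.03 and 8.71, a range of 0.32. The median of its 11 peaks was -0.84 in erAlec0, where 10 of 11 were lower. In erCriz0 and erLor0 it was -0.26 and -0.46, near the regional medians that follow. Medians of 561 further peaks within 5 Mb were -0.34 (erCriz0), -0.31 (erAlec0) and -0.45 (erLor0). Falls were seen upstream at chr9:107508942-107509388, where levels of 4.06, 2.98, 2.77 and 3.46 gave changes of -1.08 in erCriz0 and -1.28 in erAlec0. With the regional median taken off these were -0.74 and -0.98. The other falls at KLF4, in erAlec0 and erLor0, were then -0.70 and -0.61, so none passed 1. The single rise, 1.15 in erLor0, was downstream at chr9:107465373-107466272.

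KLF5, a factor of proliferating epithelia (ENSG00000102554.14, chr13:73054976-73077541, plus strand), had the highest level per length. Its RNA measured 12.35, 12.73, 12.86 and 12.45, and the peak over the gene, 27.5 kb long, 12.24, 12.21, 12.01 and 12.38. Neither moved by 1. Peaks on both sides of the gene did.

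Downstream of KLF5 6 peaks were all lower in erAlec0, with a median of -1.11, and in erLor0, with a median of -1.0, against -0.15 and -0.30 over 303 further peaks within 5 Mb. With that regional median taken off, the 3 falls in erLor0 no longer passed 1, at -0.90, -0.80 and -0.89. The 6.27 kb peak at chr13:73088293-73094558 measured 10.04, 10.24, 8.77 and 8.94. The next at chr13:73094688-73098519 measured 8.92, 7.59, 7.96 and 7.72 and fell by 1.33 in erCriz0 and 1.20 in erLor0. Upstream, 2 peaks fell by 1.24 and 1.10 in erCriz0 but were higher by 0.21 and 0.96 in erAlec0 and 0.82 and 0.84 in erLor0. RNA of KLF5 was higher than in naive cells in all 3 lines, by 0.38, 0.51 and 0.11.

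The KLF5 downstream region is shown by the central 300 bases of the latter downstream peak, chr13:73096454-73096753 on the plus strand of hg38, which had its lowest levels in erCriz0 and erLor0. None of the 5 motifs searched for is in it, and it has no capitals.
KLF5 downstream peak: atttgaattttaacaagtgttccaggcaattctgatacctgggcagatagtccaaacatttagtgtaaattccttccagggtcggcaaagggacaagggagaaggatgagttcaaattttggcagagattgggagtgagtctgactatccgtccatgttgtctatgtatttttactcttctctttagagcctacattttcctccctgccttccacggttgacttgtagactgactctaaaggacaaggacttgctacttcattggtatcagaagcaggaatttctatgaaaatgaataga

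ELF3, an epithelial ETS factor (ENSG00000163435.16, chr1:202007945-202017183, plus strand), had RNA levels of 11.43, 11.85, 12.12 and 11.58. It lay in the largest domain of the set, a peak of 68.7 kb that ranks 5 by length and 10 by mean level among all peaks, and that also covers ELF3-AS1 and reaches RNPEP. This peak measured 14.13, 14.22, 14.26 and 14.27. Its levels lay closer together than those of the RNA. The other paired peak, chr1:201998955-201999336 upstream, was short and weak, at 4.09, 3.34, 3.72 and 3.41. The RNA change of 0.69 in erAlec0 was reached or passed by 11.1% of expressed genes.

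EHF, the other epithelial ETS factor (ENSG00000135373.12, chr11:34621093-34661057, plus strand), was the only 1 of the 10 with an RNA range above 1. It measured 10.19, 10.95, 10.13 and 9.91, highest in erCriz0 and lowest in erLor0. The 0.76 of erCriz0 was reached or passed by 8.76% of expressed genes. By the Euclidean distance between levels centred on their own mean over the 4 lines, among 12700 other expressed genes, ENPP1 (distance 0.046), PROM2 (0.0658) and FGD6 (0.0685) had the most similar pattern. These distances rest on 4 libraries.

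The mark at EHF split by peak. Over the start a peak of 27.1 kb measured 12.29, 12.40, 12.63 and 12.87, and in the body the peak at chr11:34648907-34657781 measured 9.82, 10.72, 9.30 and 9.53, 0.90 higher in erCriz0. Over all 16 peaks, 12 were lower in erCriz0, 14 in erAlec0 and 12 in erLor0. The 4 higher in erCriz0 were the longest, of 27.1, 8.9, 6.8 and 6.1 kb, with changes of 0.11, 0.90, 0.28 and 0.42. The 12 lower there were at most 2.3 kb long, so a count by peak does not describe the marked length. The medians were -0.46, -0.45 and -0.31, whereas 233 further peaks within 5 Mb had 0.41, 0.08 and 0.17. Of all EHF peaks 1 fell, at chr11:34677642-34683748 downstream, with levels of 9.09, 9.51, 7.73 and 8.28 and a fall of 1.36 in erAlec0.

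The central 300 bases of this peak, chr11:34680545-34680844 on the plus strand of hg38, carry the SNAI and ZEB E-box CACCTG in capitals.
EHF downstream peak: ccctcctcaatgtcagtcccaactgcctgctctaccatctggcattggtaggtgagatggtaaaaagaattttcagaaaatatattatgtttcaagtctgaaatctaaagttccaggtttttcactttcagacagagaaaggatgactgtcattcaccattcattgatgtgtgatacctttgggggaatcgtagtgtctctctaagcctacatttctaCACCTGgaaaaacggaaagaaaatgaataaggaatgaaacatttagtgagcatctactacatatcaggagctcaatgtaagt

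TP63, the master factor of basal epithelia (ENSG00000073282.13, chr3:189631389-189897276, plus strand), was scarcely transcribed. Its RNA measured 4.44, 4.43, 5.21 and 4.28, and it passed the minimum for an expressed gene only through erAlec0. Its change in erAlec0 was 0.77, and erAlec0 and erLor0 differed by 0.93. At levels this low rlog draws values together, so the size of the difference is uncertain.

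Of the 51 peaks of TP63, 40 lie in its introns, 6 lie downstream and 2 lie upstream. TP63 has long and short forms (TAp63 and ΔNp63) from separate starts. In GENCODE 44 the long-form starts run from 189631389 to 189631516 (6 transcripts) and the short-form starts, 158.27 kb further on, from 189789659 to 189789801 (8 transcripts). The peaks by the long-form start were weak, 3.91, 4.64, 3.51 and 3.20 at chr3:189629989-189630666 and 3.35, 3.94, 2.95 and 2.79 at chr3:189630955-189631341. The peak at the short-form start, chr3:189789212-189793638, measured 8.56, 9.09, 7.87 and 8.11, so both starts had their highest level in erCriz0.

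The 250 bases before the first of each set of starts, on the plus strand of hg38, allow the starts to be compared. They are chr3:189631139-189631388 for the long form and chr3:189789409-189789658 for the short form, and capitals mark CAGGTG, the reverse complement of the E-box CACCTG.
TP63 long-form start: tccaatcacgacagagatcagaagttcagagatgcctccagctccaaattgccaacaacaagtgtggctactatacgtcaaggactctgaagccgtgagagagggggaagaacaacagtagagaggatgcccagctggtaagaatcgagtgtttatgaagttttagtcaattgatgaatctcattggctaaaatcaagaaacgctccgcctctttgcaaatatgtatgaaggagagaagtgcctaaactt
TP63 short-form start: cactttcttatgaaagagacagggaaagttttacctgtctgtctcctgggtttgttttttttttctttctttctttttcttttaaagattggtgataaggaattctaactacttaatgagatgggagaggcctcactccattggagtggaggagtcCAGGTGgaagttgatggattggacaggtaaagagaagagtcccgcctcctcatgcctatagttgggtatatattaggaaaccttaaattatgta

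Falls at TP63 were concentrated in erLor0 (15 of 51) and erAlec0 (8 of 51), with 2 in erCriz0. Over all peaks 8.82%, 9.41% and 5.94% fell in these lines. Medians over the 51 were -0.18 (erCriz0), -0.46 (erAlec0) and -0.74 (erLor0), against 0.04, -0.16 and -0.16 over 559 further peaks within 5 Mb. Some falls no longer passed 1 with that regional median taken off. They were then -0.89, -0.90, -0.94 and -0.85 in erLor0, and -0.97 and -0.98 in erAlec0. Of the 51 peaks 36 reached the study's minimum of 15 reads. Several falls in erLor0 were at peaks under it, such as chr3:189838723-189839026, with levels of 3.34, 2.82, 2.35 and 2.04. The 6 peaks downstream of the gene were all lower in erAlec0 (median -1.01) and erLor0 (median -1.57). At chr3:189902084-189903809 levels were 6.29, 5.86, 4.81 and 4.28, a fall of 2.01 in erLor0, the largest of all member peaks. At chr3:189912450-189916272 they were 7.54, 6.09, 5.88 and 5.60, so that all 3 lines fell.

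Rises at TP63 were seen in erAlec0 alone, in 3 intronic peaks. That at chr3:189765462-189768003 measured 7.15, 6.48, 8.44 and 7.81, a change of 1.29. That at chr3:189805610-189806765 rose by 1.32 and that at chr3:189809779-189810192 by 1.08. In erAlec0, the line with the highest TP63 RNA, the mark thus rose at 3 of the 51 sites and fell at 8. Over all peaks 14.1% rose and 9.41% fell in that line, so rises at TP63 were below the background share.

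**Figure D4:**
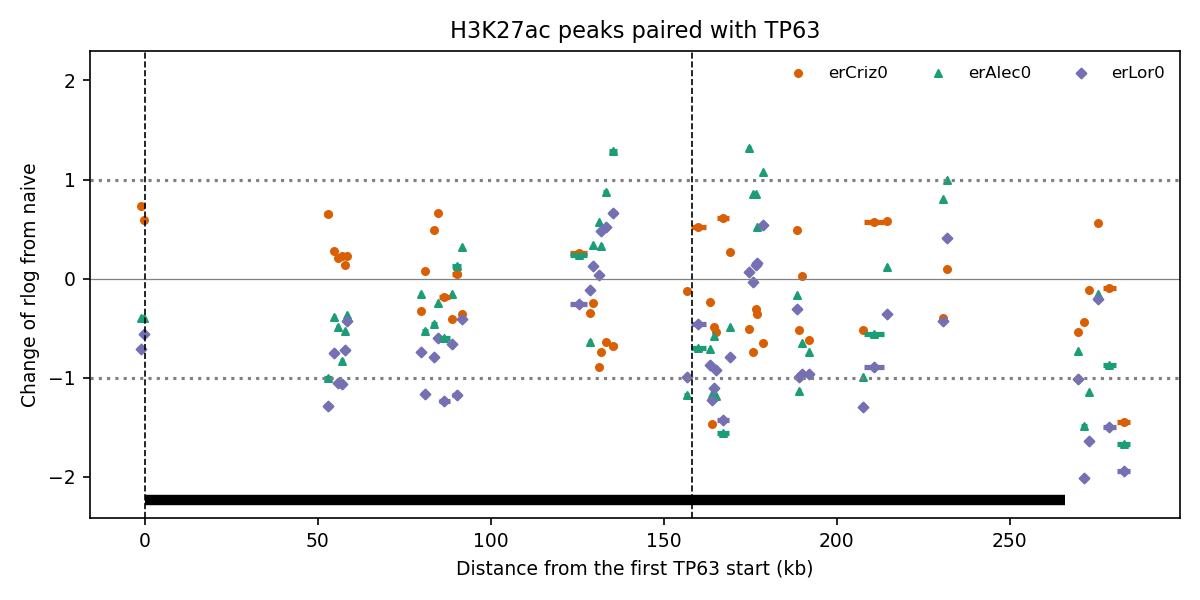
Change in H3K27ac (rlog, resistant line minus naive) of the 51 peaks of TP63 by distance from the long-form start in kb, with circles for erCriz0, triangles for erAlec0 and diamonds for erLor0. Horizontal bars span each peak, dotted lines mark changes of 1 and -1, dashed vertical lines mark the long-form and short-form starts and the black bar the gene; erLor0 is below 0 at most peaks and lowest downstream of the gene.

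The central 300 bases of the downstream peak with the largest fall, chr3:189902797-189903096 on the plus strand of hg38, hold 1 E-box, CAGGTG, in capitals.
TP63 downstream peak: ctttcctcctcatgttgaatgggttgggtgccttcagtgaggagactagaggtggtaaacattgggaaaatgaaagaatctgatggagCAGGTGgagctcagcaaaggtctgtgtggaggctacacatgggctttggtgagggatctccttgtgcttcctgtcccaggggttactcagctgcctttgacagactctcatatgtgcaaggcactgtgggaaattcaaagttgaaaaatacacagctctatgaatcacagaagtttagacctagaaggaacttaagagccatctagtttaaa

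Searches of this kind found the motifs at about the rate of all regions. Both strands of the central 300 bases of 119 member peaks long enough to hold them were read, beside 95649 windows of all peaks, counting a window once per motif, wherever motifs overlap. The KLF motif GGGTGTG was in 6.72% of member windows and 7.19% of all, the SOX motif CATTGTT in 4.20% and 4.22%, and the E-box CACCTG in 26.9% and 29.7%. The GRHL motif AACCGGTT and the ETS motif CCGGAAGT were in no member window, and in 0.0680% and 0.587% of all windows. Of 9 RefSeq promoters of 7 factors, of 300 bases each, only that of ELF3 held a searched motif, CACCTG, which 20.6% of all 35116 promoters hold. Promoters of SOX9, GRHL2 and OVOL1 were not analysed here.

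OVOL1, a repressor of mesenchymal genes (ENSG00000172818.10, chr11:65787063-65797214, plus strand), had RNA levels of 7.92, 7.70, 7.81 and 7.73, so each resistant line was lower than naive cells by 0.12 to 0.22. Its 8 peaks are all also paired with OVOL1-AS1 and AP5B1. None rose or fell. The start-site peak, chr11:65790082-65793647, measured 9.14, 10.02, 8.14 and 8.79, highest in erCriz0 and lowest in erAlec0. The peak at the first exon, chr11:65786998-65787537, measured 6.23, 7.13, 6.39 and 7.00. All 4 peaks that overlap the gene were higher in erCriz0 and 3 of 4 were lower in erAlec0.

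GRHL2, which maintains junction gene expression and represses ZEB1 (ENSG00000083307.12, chr8:101492439-101669726, plus strand), had the steadiest RNA of the 10, with levels of 9.79, 9.82, 9.80 and 9.89. Its change of 0.00 in erAlec0 was reached or passed by 99.8% of expressed genes. Its start-site peak, 16.9 kb long, measured 11.91, 12.08, 12.21 and 12.36. The mark in the rest of the locus did not stay level. Of 38 peaks 34 were lower in erCriz0 and 10 fell, with a median of -0.76 (0.02 for 439 further peaks within 5 Mb). In erAlec0 3 fell and 1 rose, and in erLor0 2 fell. The deepest fall, of 1.38 in erAlec0, was at the intronic peak chr8:101626194-101626430, with levels of 3.39, 2.41, 2.01 and 2.46. Each of these is under the study's peak minimum of 15 reads on the log2 scale (3.91), which 27 of the 38 peaks reached. The 1 that rose, at chr8:101588842-101590004 in an intron, measured 5.69, 4.55, 6.80 and 6.08, a change of -1.14 in erCriz0 and 1.11 in erAlec0. Of the 38 peaks 22 are paired with no other gene.

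**Figure D5:**
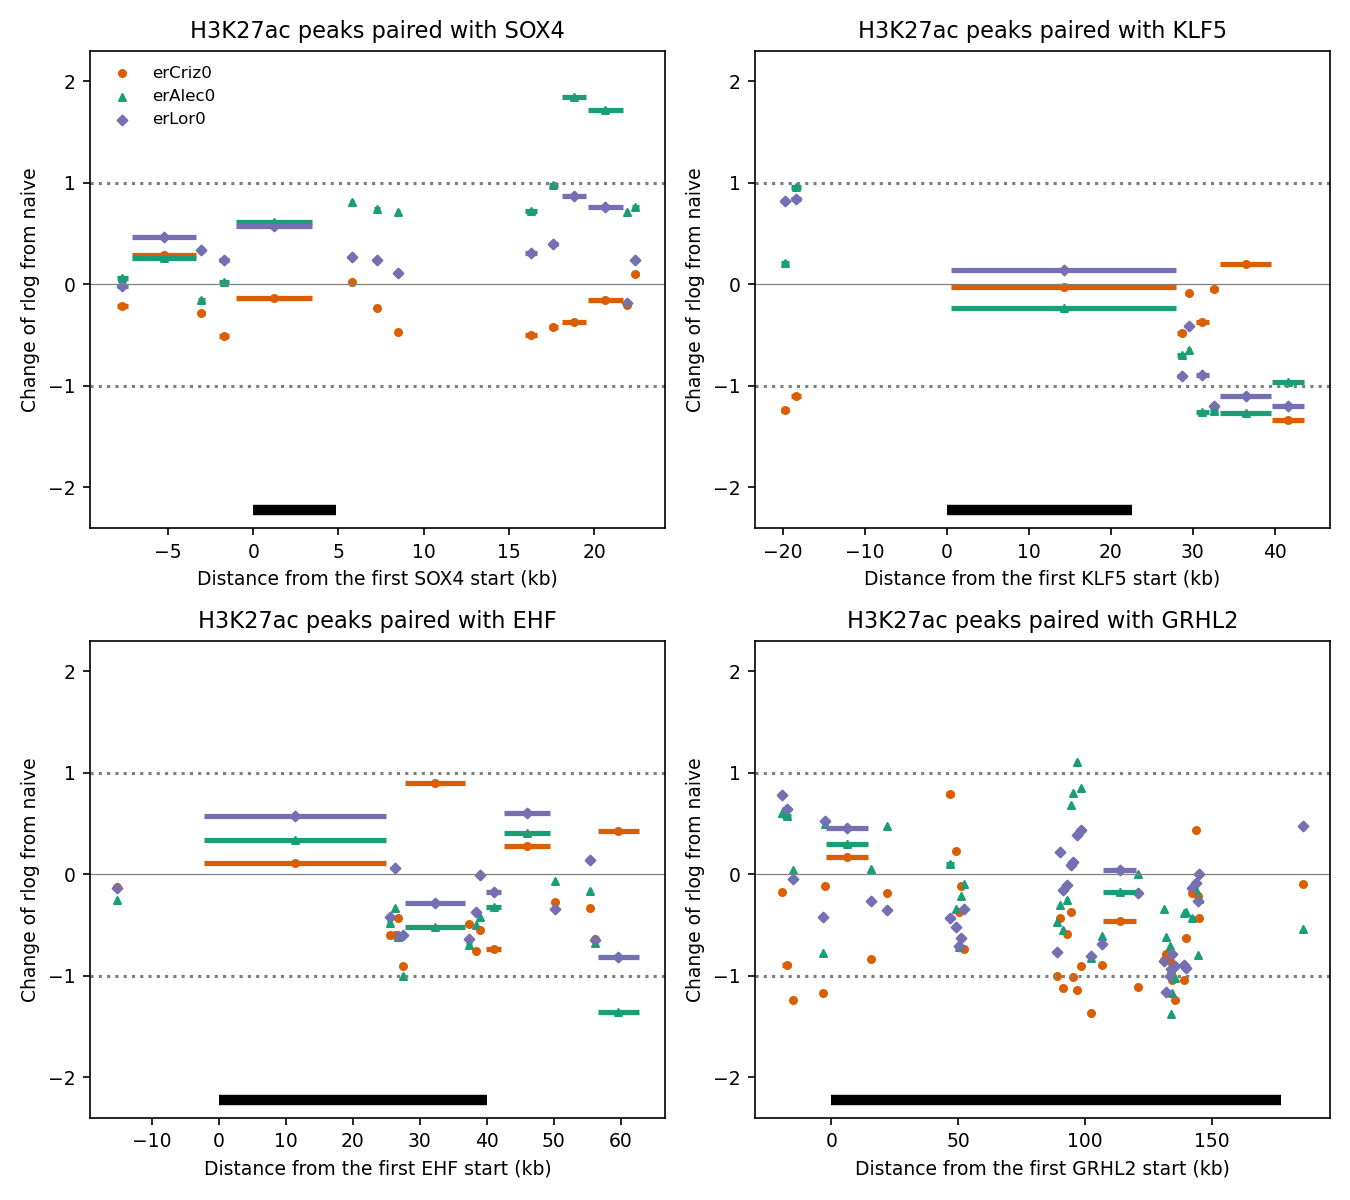
Change in H3K27ac (rlog, resistant line minus naive) of peaks by distance from the gene's start in kb at SOX4, KLF5, EHF and GRHL2, with circles for erCriz0, triangles for erAlec0 and diamonds for erLor0. Coloured bars span each peak, black bars the gene, and dotted lines mark changes of 1 and -1; SOX4 rises downstream in erAlec0, KLF5 falls downstream in erAlec0 and erLor0, and GRHL2 is mostly below 0 in erCriz0.

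Genes of the programmes these factors belong to were examined as lists. Of 30 epithelial junction and surface genes, all expressed, 0 rose and 1 fell in erCriz0, 2 rose in erAlec0 and 1 rose in erLor0, with medians of -0.06, 0.22 and 0.16. The tight junction protein CLDN3 fell by 1.28 in erCriz0. The plaque protein DSP rose by 1.03 in erAlec0 and 1.26 in erLor0, and PPL, a cornified envelope and plaque protein, by 1.38 in erAlec0. Of 7 EMT transcription factors 3 were expressed and none changed by 1. They are named here after their values were seen. SNAI2 measured 3.95, 4.92, 4.62 and 4.60 and passed the expression minimum only through erCriz0, where its difference was 0.97. SNAI1 measured 4.64, 4.01, 4.19 and 4.68, and TWIST2 4.90, 4.62, 5.25 and 5.11.

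The basal list held rises and no falls. Of its 13 expressed genes, out of 21 in the table, 1 rose in erCriz0, 4 in erAlec0 and 2 in erLor0. Over all expressed genes 2.65%, 2.46% and 1.10% rose and 1.65%, 2.07% and 0.740% fell, so the lack of falls is near the background. Of the 13, 6 were lower than in naive cells in erCriz0, 3 in erAlec0 and 2 in erLor0. The rest of the list, with KRT5, DSG3, DSC3, PKP1 and CLCA2 among them, stayed under the expression minimum. These are named after their values were seen. The keratin KRT6A rose by 3.11, 1.05 and 1.01, and KRT17 had differences of -0.31, 2.20 and 1.39. ITGB4, an integrin of hemidesmosomes, rose by 1.01 in erAlec0. The medians were 0.15, 0.58 and 0.54.

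The secretory list moved both ways. Of 11 expressed genes 3 rose and 1 fell in erCriz0, 1 rose and 1 fell in erAlec0, and 0 rose and 5 fell in erLor0. Over all expressed genes 2.65%, 2.46% and 1.10% rose and 1.65%, 2.07% and 0.740% fell. The list had medians of 0.71, -0.09 and -0.24. Among mucins, MUC1 was up by 1.88 in erCriz0 and by 1.71 in erAlec0. MUC16 rose by 1.41 in erCriz0. The trefoil peptide TFF3 fell by 1.90 in erCriz0 and 1.25 in erLor0, and WFDC2 by 1.24 in erAlec0 and 1.5 in erLor0. In erLor0 the protease TMPRSS4 fell by 1.37.

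Relatives of the 10 factors, 26 of 36 in the table being expressed, gave 1 fall in erCriz0, 2 rises and 1 fall in erAlec0, and no change of 1 in erLor0. Over all expressed genes 2.65%, 2.46% and 1.10% rose and 1.65%, 2.07% and 0.740% fell, so among 26 genes these counts are near the background. SOX12 fell by 1.48 in erCriz0. In erAlec0 KLF2 rose by 1.65, KLF6 by 1.46, and TP73, another p53 family member, fell by 1.36. The medians of -0.12, 0.05 and 0.11 were near those of all expressed genes.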

How the data were processed

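Values of 4 RNA-seq and 4 H3K27ac ChIP-seq libraries, 1 of each per line, came from a single table of peak and gene pairs. The values are on a log2 scale, as rlog from DESeq2, which the authors applied to read counts before they deposited the table. For RNA they realigned reads to hg38 with HISAT2 and counted with HTSeq-count, and for ChIP-seq they used BWA, removed duplicates, called peaks with MACS2, merged them and counted with featureCounts. The rlog shrinks features with few reads, so small changes of weak peaks and of TP63 are understated, and depth cannot be recovered. Deposited correlations of each pair were not used.

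Changes were computed as resistant minus naive, and a limit of 1 was used. Expressed genes have at least 25 reads on the log2 scale (4.64) in at least 1 library. Positions and transcript starts came from GENCODE release 44, whose coordinates were those of the table for 9 of 10 factors, EHF being longer there. Sequence was read from hg38 and promoters from RefSeq. Named genes are the 10 factors, up to 5 genes past 1 per list, the 3 genes nearest to a factor with a range of at least 1, and per factor the start-site and most changed peaks. The values of 1 gene of this rule are not reported here. The factors, the gene lists and the settings were chosen with earlier results of these data known. Scripts, in Python 3.11.15 with pandas 2.3.3, were tested on simulated data. The leaving out of TP63 was added after the data were seen.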

Additional observations from a re-analysis of the deposited data

Results flagged for a closer look

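At GRHL2, the intronic peak at chr8:101588842-101590004 was lower in erCriz0 and higher in erAlec0 than in naive cells, each by more than 1. The changes of -1.14 and 1.11 lie 2.25 apart, and the difference was not tested, since each line gave 1 library. With quantile normalization the erAlec0 change was 0.99 and no longer past 1.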

How the results depend on the processing

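No change past 1 reversed. Of the summary values 75 were classed as close to those reported and 33, given here, were not. Some counts of falls among the 75 also shifted. The 16 falls of erCriz0 became 12 when centred, 11 for peaks paired with 1 gene and 22 with the regional median taken off. The 17 of erAlec0 became 21, 12 and 13 under the same settings. The 21 of erLor0 became 16 when centred and 16 for peaks paired with 1 gene. The minimum of 15 reads left 12, 13 and 16, by line in this order. RNA differences near 0 turned sign in erCriz0 for KLF4 (-0.04 to 0.02, centred), TP63 (-0.01 to 0.05, centred, and 0.01, quantile) and GRHL2 (0.02 to -0.01, quantile), and in erAlec0 for GRHL2 (0.00 to -0.02, quantile). With a limit of 1.5-fold, 1 factor rose in erCriz0, 3 rose in erAlec0 and 1 fell in erLor0. The rising and falling peaks numbered 12 and 46 (erCriz0), 27 and 51 (erAlec0) and 15 and 59 (erLor0). With a limit of 2, 0 peaks fell in erCriz0, 0 rose and 0 fell in erAlec0, and 0 rose and 1 fell in erLor0. With the minimum of 15 reads the erCriz0 median was -0.21. With peaks within 5 kb 10 fell in erCriz0 and 10 in erAlec0, and 0 rose in erLor0. With peaks paired with 1 gene 3 rose in erAlec0 and 0 in erLor0, with medians of -0.44 and -0.53. With quantile normalization 27 fell in erAlec0. With the median of other peaks within 5 Mb taken off, 2 rose in erCriz0, 12 in erAlec0 and 4 in erLor0, 13 fell in erLor0 and its median was -0.22. With centring the erLor0 median was -0.25. Without TP63, 3 rose and 9 fell in erAlec0, and 6 fell in erLor0 with a median of -0.13. The cause of these shifts was not tested, apart from the numbers of peaks that each limit or filter sets. Of 62 changes past 1 in single peaks, 53 stayed past it under centring, 53 under quantile normalization and 47 after the regional median was taken off. No paired analysis was possible because each line gave 1 library. Depth is unknown, so no counting limit is given for weak peaks or for TP63.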
